A study of Arabidopsis thaliana with 18 samples.

Results

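Ribosome loading of mRNAs in seedlings of the rpl24b mutant of Arabidopsis thaliana was described by comparing polysomal RNA (PL) with nonpolysomal RNA (NP) of the same plant samples. The comparison rests on 6 of the 18 arrays of the series, namely 3 PL and 3 NP arrays paired by replicate number, and on all 22746 probe sets of the ATH1 array. The mutant carries the rpl24b allele stv1-1 in the Ws ecotype and lacks RPL24B, 1 of 3 genes for the large-subunit ribosomal protein (r-protein) L24. According to the study's methods the deletion also covers several neighbouring genes, and the line carries a transgene with the CAPRICE (CPC) coding sequence. The wild type (WT), with 3 PL and 3 NP arrays of its own, served as the comparison. Its ecotype is not in the labels and the methods place wild-type plants in Col-0 while speaking of a corresponding wild type, so that differences between rpl24b and WT may be of strain or of genotype, and the 2 cannot be told apart here. Both genotypes were grown together for 10 to 12 days on full-strength Murashige and Skoog salts with 1% sucrose at 22 °C under 16 h of light and 8 h of darkness, and aerial parts were collected after 6 h of light. The 3 replicates were grown at different times.

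An mRNA that is being translated usually carries several ribosomes at once, and such polysomes travel further into a sucrose gradient than single ribosomes or free ribonucleoprotein. The share of an mRNA in polysomes is therefore used as a measure of how actively it is translated. Very short coding regions hold few ribosomes and can leave an mRNA outside the polysomes for that reason alone. Nuclear mRNAs are translated by cytosolic ribosomes, whereas mRNAs of the plastid and mitochondrial genomes are translated by the smaller, bacterial-type ribosomes of these organelles. L24 is known in Arabidopsis for its part in reinitiation, the resumption of translation after an upstream open reading frame (uORF).

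The translation state of an mRNA, abbreviated TL, was obtained by subtracting its log2 NP signal from its log2 PL signal in each plant sample, so a TL of 1 is a 2-fold higher signal in PL than in NP. Because the arrays were scaled to each other, TL is relative to the other mRNAs of the array. A TL of 0 does not mean equal amounts in both fractions, and a shift of all mRNAs together cannot be seen. Values below are log2 signals or TL, with means ± SD over 3 replicates, and adjusted p-values come from a limma fit over all probe sets with Benjamini-Hochberg adjustment. An mRNA was called well loaded (above) or poorly loaded (below) when its adjusted p was under 0.05 and its TL at least 1 in size. NP holds free and monosomal RNA together, and a lower share of an mRNA on ribosomes cannot be told apart from fewer ribosomes on each molecule.

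Log2 signals of the rpl24b arrays ranged from 1.87 to 14.16, with array medians between 4.94 and 5.07. WT medians lay between 4.901 and 4.997, except for the NP array of WT replicate 2 at 4.65. A probe set was treated as bright when its mean PL or mean NP signal reached 4.99, which 12049 of the 22746 did. Probe sets under this minimum are called dim. Where bright or dim is said of WT, the minimum was the median signal of the WT PL and NP arrays instead. Gene names could be given to 14561 probe sets. Gene lists hold only members that could be named, so that families may be incomplete. TL correlated between replicates across probe sets at r = 0.87, 0.83 and 0.83, and at 0.93, 0.90 and 0.89 among bright ones. The median SD over replicates was 0.20. Array number limits the precision of every value.

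RPL24B itself was at background in the mutant. Its PL signals were 3.30, 3.58 and 3.38 and its NP signals 4.50, 3.75 and 3.41 in rpl24b, whereas WT had a mean of 10.83 in PL and 9.82 in NP. Its TL in the mutant, -0.46 ± 0.64, is one of a dim probe set and was not called (adjusted p = 0.0762). The paralog RPL24A was well loaded, with TL values of 1.198, 1.191 and 1.037 in rpl24b (mean 1.14, adjusted p = 1.05e-05) and a mean of 1.02 in WT, and was the only RPL24 gene called. After quantile normalization its TL was 0.89, under the minimum. The third gene, RPL24C, had a TL of 0.56 ± 0.23 and was not called. CPC, a small MYB protein, is carried by the mutant as a transgene. Its PL signals were 10.53, 10.31 and 9.95 and its NP signals 11.64, 11.46 and 11.58. Its TL was -1.296 ± 0.29 (adjusted p = 1.04e-05), below in all 3 replicates. In WT its mean signals were 3.40 in PL and 3.53 in NP, which is background, so its loading cannot be compared between genotypes. The aerial origin of the material was checked with marker genes. RCA, Rubisco activase of leaves, had mean signals of 13.34 in PL and 12.61 in NP, and the root hair expansins EXPA7 and EXPA18 were dim. PYK10, a root-preferential beta-glucosidase, was bright at 9.86 in PL and 8.21 in NP.

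Loading in rpl24b differed strongly among mRNAs. PL was above NP for 1255 probe sets (5.52% of all tested) and below NP for 1050 (4.62%). Of these, 790 and 663 differed by at least 2-fold in each of the 3 replicates, and 61 and 130 by at least 4-fold in the mean. Mean TL ranged from -3.82 to 3.63, 90% of probe sets lay between -0.97 and 1.05, and the median was -0.04. Poor loading thus reached further from the centre than good loading at the 4-fold level, although fewer mRNAs were called below than above. Among the 12049 bright probe sets, 1232 were above (10.2%) and 986 below (8.18%), so that 23 and 64 of the called were dim.

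The best-loaded named mRNA was AT1G64370, a gene of unknown function. Its PL signals were 10.57, 10.81 and 10.40, against 6.65, 6.86 and 7.38 in NP, and its mean TL of 3.63 ± 0.52 is a 12.4-fold difference. The PL and NP values did not overlap, but the mRNA was chosen by these same values. RAB18 (AT5G66400), a dehydrin that accumulates with abscisic acid and drought, followed with PL signals of 6.66, 7.09 and 7.01 against 3.56, 3.86 and 4.20 in NP (TL 3.05 ± 0.21). A second dehydrin, LTI30, had 5.98, 5.38 and 6.65 in PL against 3.56, 3.26 and 4.35 in NP (TL 2.28 ± 0.15). In both dehydrins NP was near background, where differences are compressed, so that their TL and rank are only approximate.

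Other mRNAs among the 15 best loaded encode plastid proteins. pRPL11 (AT1G32990), protein L11 of the plastid ribosome, had PL signals of 9.76, 9.74 and 9.90 against 7.39, 7.06 and 7.52 in NP (TL 2.48 ± 0.18). CHLI2, a subunit of the magnesium chelatase of chlorophyll synthesis, had 7.50, 7.39 and 7.67 in PL against 5.04, 5.60 and 5.55 in NP (TL 2.12 ± 0.33). AT3G11630, a 2-Cys peroxiredoxin of the chloroplast, had 11.37, 11.35 and 11.56 in PL against 9.29, 9.18 and 9.54 in NP (TL 2.08 ± 0.08). NAI2, a protein of endoplasmic reticulum bodies, had a TL of 2.35 ± 0.18. The remaining members, AT4G19200 at 2.71, AT1G28400 at 2.202, AT4G34290 at 2.199, AT1G18210 at 2.197, AT1G56050 at 2.12, AT1G09130 at 2.11, and AT5G45350 and AT4G17520 each at 2.09, are given by locus. Every one of the 15 had a TL of at least 1.57 in each replicate. All 15 were also called above in WT, where their mean TL ranged from 1.29 (AT1G09130) to 3.90 (AT1G64370).

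**Figure D1:**
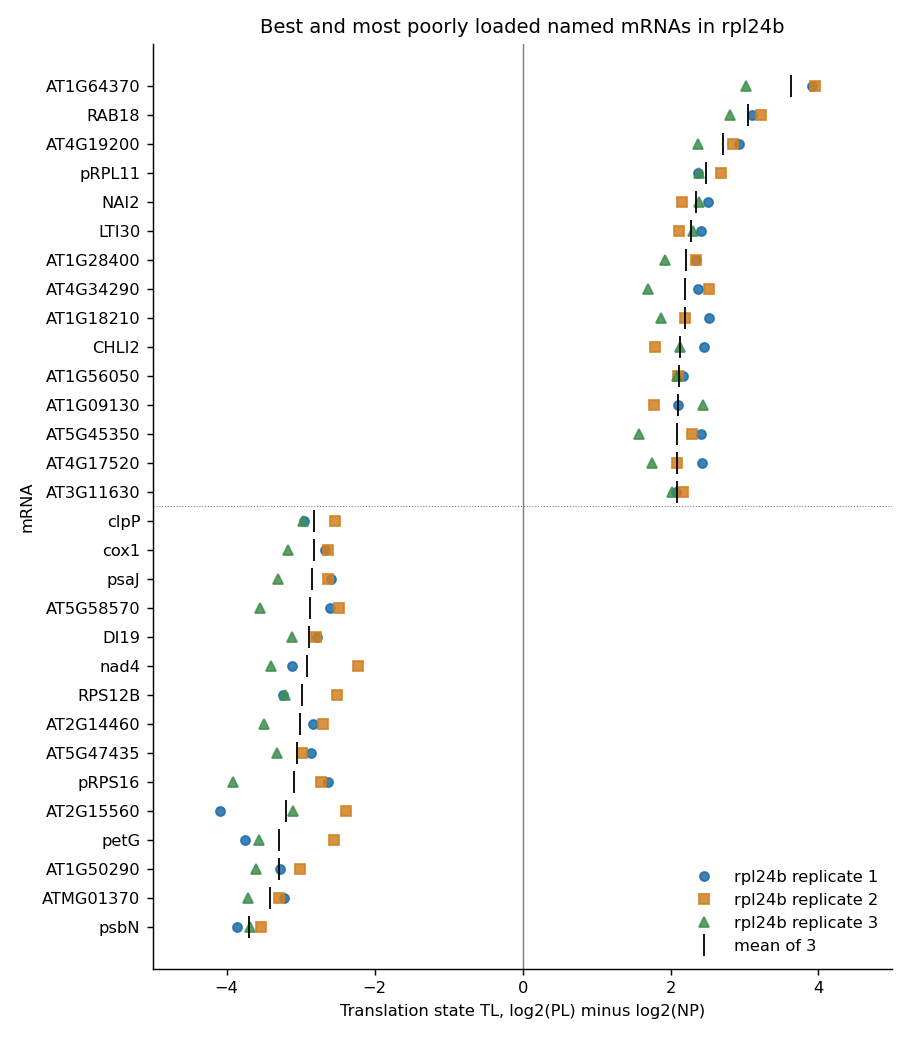
TL as log2(PL) minus log2(NP) for the 15 best-loaded mRNAs (top) and the 15 most poorly loaded (bottom) in rpl24b. They were chosen among called, bright probe sets of 1 named locus. The same sign of TL in all 3 replicates was required, so that none could cross 0. Symbols are the 3 replicates and bars their mean. The top mRNA, AT1G64370, averages 3.63 and the bottom one, psbN, -3.70.

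Of the 15 most poorly loaded named mRNAs, 8 came from organelle genomes and 7 from the nucleus. psbN, a small plastid gene whose product assists photosystem II, had PL signals of 5.36, 5.37 and 4.97 against 9.23, 8.91 and 8.65 in NP (TL -3.70 ± 0.16, adjusted p = 2.51e-08). petG, a small subunit of the cytochrome b6f complex, had 5.15, 5.67 and 5.11 in PL against 8.90, 8.22 and 8.68 in NP (TL -3.29 ± 0.65). clpP, the plastid-encoded subunit of the Clp protease, had 10.12, 10.34 and 10.11 in PL against 13.07, 12.88 and 13.08 in NP (TL -2.82 ± 0.25). psaJ and the plastid-encoded pRPS16 belonged to the same 15, with TL of -2.84 and -3.09. Of the mitochondrial genome, ATMG01370 (-3.41), nad4 (-2.91) and cox1 (-2.83) were among them. In each of these, the PL and NP signals did not overlap. A TL of the same sign in every replicate was a condition of the choice.

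Nuclear mRNAs made up the rest of the 15. DI19, a zinc-finger protein of the drought response, had PL signals of 8.61, 8.78 and 7.98 against 11.39, 11.57 and 11.10 in NP (TL -2.89 ± 0.19). Its mean TL in WT was -2.90, close to the value in rpl24b. AT5G47435 had a TL of -3.05 in rpl24b and -3.04 in WT. RPS12B, a paralog for the 40S protein S12, had 4.82, 5.07 and 4.63 in PL against 8.06, 7.58 and 7.84 in NP (TL -2.99 ± 0.42). The paper reports that RPS12B has an incomplete reading frame and is annotated as a pseudogene. AT2G14460 and AT5G58570 had TL of -3.004 and -2.88. AT2G15560 (-3.19) and AT1G50290 (-3.30) complete the group and differed from WT, as described further down. A probe set shared by the adjoining mitochondrial genes for mRPL16 and mRPS3 had the lowest value of all, -3.82, and was left out of the 15 because it stands for 2 loci.

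Called mRNAs differed from the rest in signal. In total RNA (TC), the median signal was 7.94 for mRNAs called above and 6.51 for those called below, against 5.03 for those not called. When probe sets were divided into 10 bins by signal, 18.9% of the highest bin were called above and 9.36% below, and none of 2275 in the lowest bin was called. The bins were formed from the PL and NP arrays themselves, and low signals compress differences, so that the shares describe where calls could be made. Among 21 loci with several bright probe sets, 9 had at least 1 called, 4 had all called in the same direction and 0 had calls in opposite directions. The median range of TL within these loci was 0.59.

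Counts in the gene lists below are to be read against 5.52% called above and 4.62% below over all probe sets. Over bright probe sets these shares were 10.2% and 8.18%. Among gene lists of at least 10 probe sets, the nuclear genes for plastid r-proteins had the highest median. These proteins are made in the cytosol and imported to build the plastid ribosome. Of 49 probe sets, 28 were called above and 0 below, with a median TL of 1.06 against -0.04 over all probe sets. The medians of replicates 1, 2 and 3 were 1.06, 0.91 and 1.10. Besides pRPL11, the group was led by pRPS6 (1.95 ± 0.14), pRPL35 (1.84 ± 0.19), the gene of the pRPL5 family AT4G01310 (1.81 ± 0.01) and the pRPL18N gene AT1G48350 (1.78 ± 0.19). pRPL5 was very even, with PL minus NP of 1.81, 1.81 and 1.82. At the other end stood the pRPS1 gene AT1G71720 (-0.27 ± 0.26), the nuclear pRPS16 gene AT4G34620 (-0.26 ± 0.12) and pRPL6 (-0.16 ± 0.19), none of them called. This pRPS16 gene had a mean PL signal of 12.43, far above the signal minimum. WT had a median of 0.94 with 24 called above.

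Cytosolic r-protein mRNAs were spread more widely. Of 130 probe sets for 60S proteins, 26 were called above (20%) and 5 below (3.85%), with a median of 0.39, and of 86 for 40S proteins, 15 were above (17.4%) and 1 below (1.16%), with a median of 0.52. Over all probe sets the shares were 5.52% above and 4.62% below, so the calls below were no more frequent here than in general. In WT, 14 of the 60S probe sets were called above and 6 below, and of the 40S probe sets 17 were above and 3 below. Over 60S and 40S together, the median was 0.43 in rpl24b and 0.16 in WT. RPL7aA was the best loaded, with PL signals of 10.79, 10.83 and 11.19 against 8.73, 8.75 and 9.15 in NP (TL 2.06 ± 0.02, adjusted p = 1.62e-07). RPS3aA followed with 11.67, 11.80 and 12.13 in PL against 9.76, 9.77 and 10.13 in NP (TL 1.98 ± 0.06). RPL19B had a TL of 1.81 ± 0.14 and RPL5B one of 1.73 ± 0.10. In all 4 of these, signals of replicate 3 were the highest in PL, while TL hardly varied.

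Below were RPS12B, the shared probe set for RPL41E, D and G (-2.05 ± 0.25), RPP0B (-1.48 ± 0.12), RPL3B (-1.41 ± 0.37), RPL39A (-1.18 ± 0.35) and RPL39C (-1.03 ± 0.44). The RPL39 genes were named after their values were seen. RPL39C had TL values of -0.86, -0.70 and -1.53, and its mean without replicate 3 would not reach the 2-fold minimum.

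**Figure D2:**
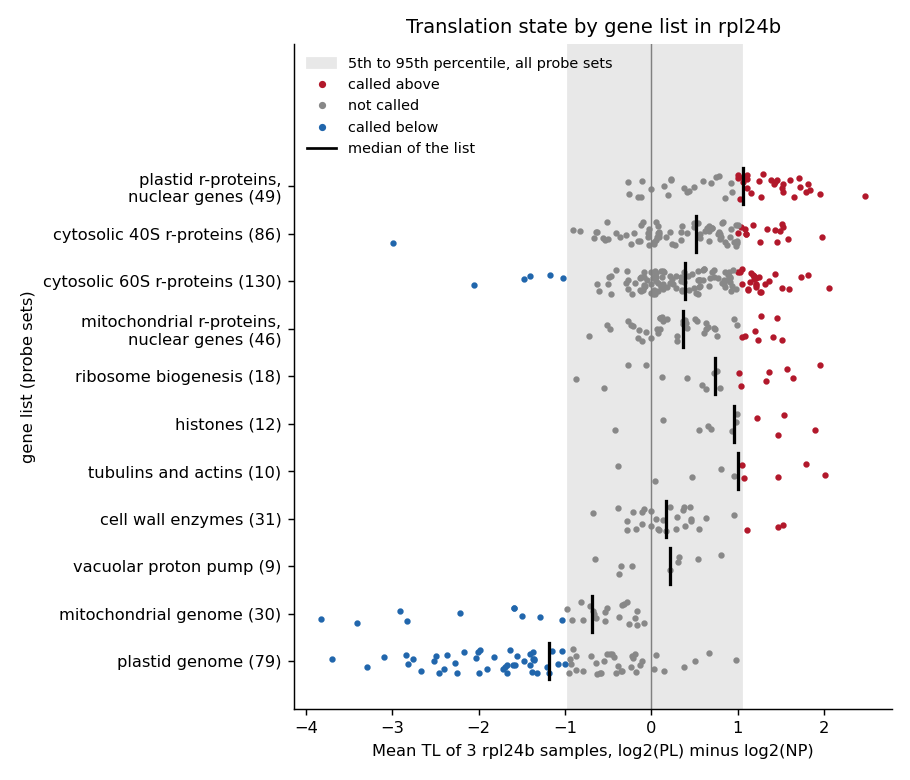
Mean TL of 3 rpl24b samples, log2(PL) minus log2(NP), for the probe sets of 11 gene lists, 1 point per probe set (red above, blue below, grey not called); the vertical bar is the list's median and the grey band holds 90% of all probe sets (-0.97 to 1.05). Nuclear genes for plastid r-proteins have a median of 1.06 and the plastid genome one of -1.19, the right and left ends of the lists shown.

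Paralogs of the same r-protein could be loaded very differently. Among 74 r-proteins with several probe sets, the range of TL was at least 1 in 25 and at least 2 in 4, with a median range of 0.75. S12 had the widest range, with RPS12C at 0.79, RPS12A at -0.12 and RPS12B, the copy annotated as a pseudogene, at -2.99. In 2 r-proteins, members were called in both directions. For P0, RPP0C had TL values of 1.04, 1.28 and 1.26 (mean 1.19) and RPP0B -1.57, -1.51 and -1.34 (mean -1.48), with RPP0D between them at 0.05. RPP0C had mean signals of 7.23 in PL and 6.04 in NP, and RPP0B of 11.28 and 12.76. For L3, RPL3A had TL values of 0.83, 1.21 and 1.11 (mean 1.05) and RPL3B -0.99, -1.55 and -1.68 (mean -1.41). RPL3B had mean signals of 4.88 in PL, under the signal minimum, and 6.28 in NP. The call of RPL3A was close to the minimum, at 0.97 without replicate 2 and 0.80 after quantile normalization.

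S15a and S3a had the next widest ranges, 2.34 and 1.89. RPS15aB had a TL of 1.43, RPS15aF of 1.09, RPS15aE of 0.95 and RPS15aD of 0.41, while RPS15aA had -0.91. RPS15aF lost its call after quantile normalization, at 0.85. For S3a the values were 1.98 in RPS3aA and 0.08 ± 0.25 in RPS3aB. A probe set can take up signal from a close paralog, so each value is that of a probe set rather than of 1 gene with certainty.

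**Figure D3:**
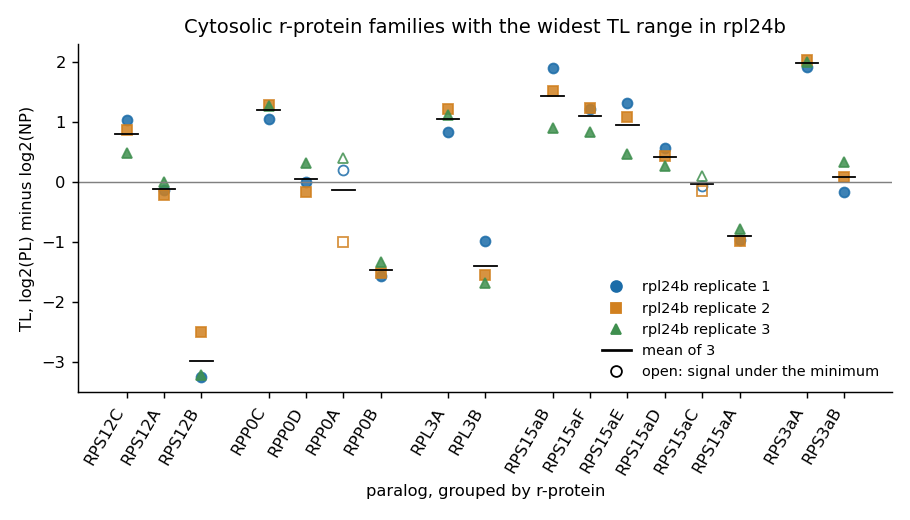
TL, log2(PL) minus log2(NP), of every paralog of the 5 cytosolic r-proteins with the widest TL range in rpl24b. Symbols are the 3 replicates, bars the mean, and open symbols mark dim probe sets; RPS12B (-2.99), RPP0B (-1.48) and RPL3B (-1.41) lie below 0 while RPS12C, RPP0C and RPL3A lie above it.

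Nuclear genes for mitochondrial r-proteins resembled the cytosolic ones, with 8 of 46 called above (17.4%), 0 below and a median of 0.37. mRPS18 (1.51 ± 0.31), the mRPL15 gene AT4G23620 (1.46 ± 0.46) and mRPS11 (1.41 ± 0.24) led them. Factors of ribosome biogenesis, the nucleolar machinery that processes rRNA and assembles subunits, had 7 of 18 called above, 0 below and a median of 0.74. In WT the median was 0.29 with 1 called above, but only 2 of the 18 differed from WT in the test described further down, both higher in rpl24b. FIB2, the fibrillarin that methylates rRNA, had PL signals of 8.90, 9.16 and 9.66 against 6.90, 7.13 and 7.81 in NP (TL 1.95 ± 0.09). AT3G23620 had a TL of 1.64 ± 0.02, AT1G52930 one of 1.57 ± 0.06 and AT3G22660 one of 1.36 ± 0.13. NUC-L2, a nucleolin, followed at 1.32 ± 0.20, and NAP57 (the pseudouridine synthase dyskerin) and NOP56 were at 1.03 and 1.01. The lowest member was AT1G06720 at -0.87, a dim probe set.

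None of the 7 initiation factor probe sets differed from WT in the test described further down. Their median TL was 0.65 in rpl24b and 0.11 in WT, and all 7 means were above 0 in rpl24b. One was called, EIF3G1, a subunit of initiation factor 3, with PL signals of 9.46, 9.53 and 9.40 against 7.69, 8.19 and 7.71 in NP (TL 1.60 ± 0.23). Those not called ran from EIF3K (0.01), another subunit of the same factor, to EIF4A-2 (0.81) and NCBP (0.89), a cap-binding protein. Of 4 elongation factor probe sets (median 0.17), the one shared by the 4 genes for eEF1A, which delivers aminoacyl-tRNA to the ribosome, was called at 1.61 ± 0.15. Among poly(A)-binding proteins, PAB2 was poorly loaded, with PL signals of 8.968, 9.098 and 8.999 against 10.62, 10.51 and 10.48 in NP (TL -1.51 ± 0.12). PAB4 and PAB8 had -0.62 ± 0.15 and -0.25 ± 0.18. The 3 genes thus lay in the same direction, and PAB2 alone passed the 2-fold minimum. In WT, PAB2 was at -1.80.

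Of 8 probe sets for genes with a conserved peptide uORF, 1 was called, BZIP53, a bZIP transcription factor. Its PL signals were 7.75, 8.05 and 7.64 against 9.44, 9.29 and 9.62 in NP, and its TL was -1.64 ± 0.37 in rpl24b and -1.41 in WT. bZIP44 had a TL of 0.01 ± 0.44, and SAMDC, a polyamine synthesis gene at mean signals of 11.48 in PL and 11.58 in NP, had -0.10 ± 0.05. Their median was 0.02 against -0.04 over all probe sets. None of 7 probe sets for auxin-responsive IAA repressors was called, of which 6 were dim, and none of 6 for clock genes.

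Nuclear photosynthesis genes lay above the centre. Of 7 photosystem subunits 3 were called above (median 0.93), of 7 Calvin cycle enzymes 2 (median 0.73) and of 4 light-harvesting proteins 1 (median 0.37). HCEF1, the fructose-1,6-bisphosphatase of the chloroplast, had PL signals of 10.12, 9.99 and 10.10 against 8.19, 8.23 and 8.17 in NP (TL 1.87 ± 0.10). PSBY was at 1.21 ± 0.06. PSAE-2 at 1.13 and PSAN at 1.06, both subunits of photosystem I, AT1G56190, a phosphoglycerate kinase, at 1.04, and LHCB4.3 at 1.01 were close to the minimum and lost their calls after quantile normalization, with 0.92, 0.90, 0.85 and 0.94. PSAN also lost it without replicate 3 (0.99) and LHCB4.3 without replicate 1 (0.94). PSBW and LHCA4, at about equal signals in both fractions, had TL of 0.13 and -0.16. Within such a list TL thus ran over more than 1 unit.

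Of 10 tubulin and actin probe sets, 5 were called above (median 1.00). TUB1, a beta-tubulin, had PL signals of 6.48, 6.40 and 6.40 against 4.38, 4.28 and 4.60 in NP (TL 2.01 ± 0.18). TUB7 was at 1.79 ± 0.10 and the probe set of TUA5 and TUA3 at 1.47 ± 0.22, while TUB9 (1.07) and TUB5 (1.05) fell under the minimum after quantile normalization, at 0.94 and 0.87, and TUB9 also without replicate 3 (0.96). TUA6, an alpha-tubulin, had -0.38 ± 0.08. Of 12 histone probe sets, 4 were called above (median 0.96). HTB2, a histone H2B, had PL signals of 7.11, 7.44 and 6.99 against 5.06, 5.01 and 5.79 in NP (TL values 2.05, 2.42 and 1.198). HTB4 (1.54) and HTB1 (1.22) were H2B genes as well. Replicate 3 was lowest for this list, with medians of 1.08, 1.32 and 0.41 in replicates 1, 2 and 3, and 1 of 5 probe sets shared by the histone H4 genes had TL values of 2.29, 1.71 and 0.40. HTA9, an H2A.Z gene, stood at -0.43 ± 0.33.

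Among smaller groups, 3 of 4 lipid transfer proteins were called above and 1 below. AZI1 had a TL of 1.44 ± 0.25, EARLI1 of 1.41 ± 0.18 and LTP6 of 1.07 (0.95 without replicate 1 and 0.88 after quantile normalization), while the gene LTP (AT2G15050) had -1.38 ± 0.33. Of 13 seed and late-embryogenesis genes 5 were above, namely LEA7 (1.90 ± 0.13), the seed storage proteins CRA1 (1.83 ± 0.75) and CRU3 (1.28 ± 0.51), AT2G44060 (1.12) and LEA18 (1.08, dim). CRA1 had TL values of 1.39, 2.69 and 1.41, and CRU3 without replicate 2 had a mean of 0.998, just under the minimum. CRA1 and CRU3 are seed markers, with PL signals of 6.21 and 5.90, while the oleosin OLEO2 was dim. The part of remaining seed RNA in these values was not tested. Of 31 cell wall enzymes 3 were above (9.68%), XTH19 (1.53), XTH16 (1.47) and EXPA4 (1.10). EXPA4 was at 0.95 without replicate 2 and 0.99 without replicate 3. PBC1, a proteasome subunit, had 1.298 ± 0.30, and HSP81-2, a cytosolic HSP90, 1.12 (0.95 without replicate 1). None of 9 probe sets for the vacuolar proton pump was called, although the list was bright throughout (median 0.22). AGP22, an arabinogalactan peptide, had -2.05 ± 0.24.

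Pseudogenes served as a view of RNA that is not thought to be translated. Of 985 probe sets, 22 were bright, 0 were called above and 10 below (1.02%), with a median of -0.08. Probe sets of r-protein genes, among them RPS12B, were kept out of this list. AT5G04880 had a TL of -2.67 ± 0.25, ML3 of -2.40 ± 0.33 and AT2G06390 of -1.83 ± 0.15. ML3 is listed as a pseudogene although it had mean signals of 6.41 in PL and 8.82 in NP. Most of the list was at background and could not be called in either direction.

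With bright and dim probe sets together, the plastid genome had the lowest median of all lists. Of its 79 probe sets, 75 were bright, 44 were called below (55.7%) and 0 above. The median TL was -1.19, and replicate medians were -1.33, -0.72 and -1.37, so that replicate 2 stood nearer to 0. Without it the median was -1.39. Over bright probe sets alone the plastid median was -1.32, and that of the mitochondrial genome was lower, at -2.52 on 8 probe sets. Labelling for these arrays favours polyadenylated RNA, and plastid mRNAs are mostly not polyadenylated, so their signals may come from a minor part of each transcript. Whether this bears on TL was not tested.

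Groups of the plastid genome differed among themselves. Cytochrome b6f genes had a median of -1.98 with 5 of 6 below, photosystem I genes -2.03 with 3 of 5, photosystem II genes -1.36 with 10 of 15, and genes of the NDH complex, which passes electrons to plastoquinone, -1.38 with 7 of 11. A mixed group of 6 single genes had -2.31 with 5 below. psbA, which encodes the D1 protein of photosystem II, had PL signals of 10.90, 11.01 and 10.08 against 13.46, 13.55 and 13.26 in NP (TL -2.76 ± 0.36). rbcL, the large subunit of Rubisco, had 7.74, 8.04 and 7.33 in PL against 10.05, 9.78 and 9.78 in NP (TL -2.17 ± 0.38). matK, a maturase for introns, was at -2.67, ccsA at -2.45 and accD, a subunit of acetyl-CoA carboxylase, at -2.01. These mRNAs, named after their PL and NP values were seen, had no overlap between the 2 fractions.

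ATP synthase genes and r-protein genes of the plastid were nearer to the centre, with medians of -0.20 (2 of 6 below) and -0.56 (8 of 22 below). atpB, atpI and atpA had TL of 0.38, 0.50 and 0.14, while atpF and atpH of the same complex had -1.55 and -1.19. pRPL22 had 0.66 ± 0.55 and the plastid pRPS16 -3.09 ± 0.72. psaA, for a core protein of photosystem I, was the highest of the genome, with PL signals of 6.03, 5.70 and 6.06 against 5.29, 4.75 and 4.83 in NP. Its TL of 0.97 ± 0.25 fell just short of the minimum, while psaB, the gene next to it in function, had -0.60 ± 0.19. Genes of the plastid RNA polymerase had a median of -1.15, with rpoC1 at -2.25 and rpoB, a dim probe set, at -0.24.

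**Figure D4:**
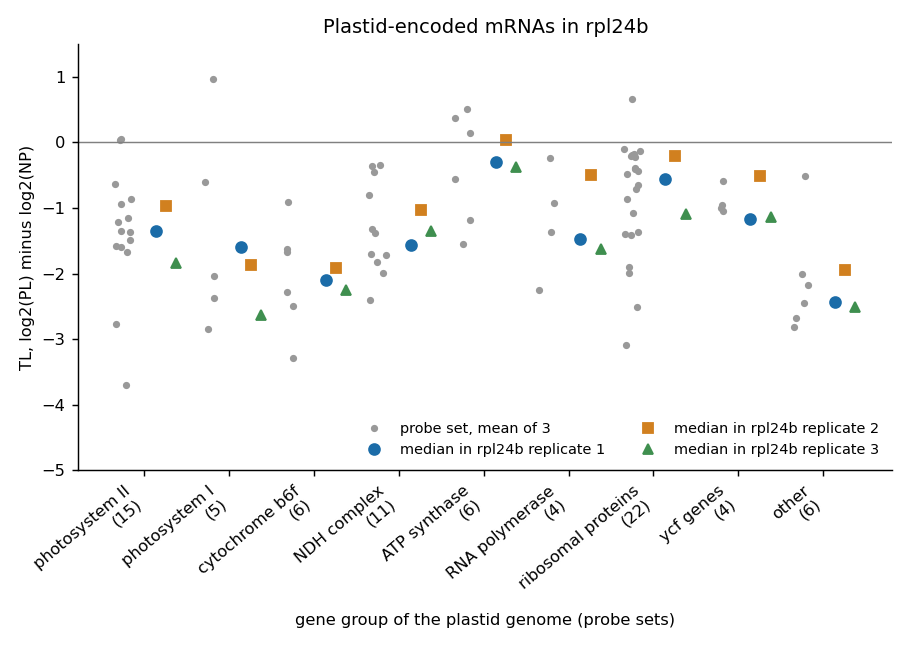
TL, log2(PL) minus log2(NP), of plastid-encoded mRNAs in rpl24b by gene group. Grey points are probe sets (mean of 3 replicates) and coloured symbols the group's median in each replicate; ATP synthase genes (median -0.20) lie nearest to 0 and the replicate 2 median is the highest in 8 of the 9 groups.

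The mitochondrial genome gave a similar picture at low signals. Of 30 probe sets, 8 were bright, 10 were called below and 0 above, and the median was -0.69, or -2.52 among the bright. 5 of them also match a copy of mitochondrial DNA in the nuclear genome. nad4, a subunit of respiratory complex I, had PL signals of 3.64, 4.68 and 4.04 against 6.75, 6.91 and 7.44 in NP, and cox1, of cytochrome oxidase, 4.56, 4.58 and 4.45 against 7.23, 7.22 and 7.62. ccb382, a cytochrome c maturation gene, was at -2.22 ± 0.52 and orfX at -1.59 ± 0.39. The PL signals of nad4 and cox1 were under the signal minimum, where differences are compressed.

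Set beside WT, the pattern in rpl24b was mostly shared. WT had 1121 probe sets above (4.93%) and 844 below (3.71%). Called in both genotypes were 829 above (66.1% of those of rpl24b and 74.0% of those of WT) and 624 below (59.4% and 73.9%), and 0 were called in opposite directions. A test of the difference itself, limma on 3 TL values of rpl24b against 3 of WT, called 138 probe sets (0.607%), of which 57 were higher (0.251%) and 81 lower (0.356%) in rpl24b. After each array was centred on its median, 117 were higher and 69 lower, so the balance of the directions depended on the scaling, and those called above and higher numbered 31 rather than 13. Among the 2305 called in rpl24b, 67 differed from WT. They comprised 13 above and higher than in WT, 51 below and lower, 2 below but higher, and 1 above but lower. All 138 are named probe sets, because part of the names came from the study's own gene lists, which were chosen on these samples.

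The 13 well-loaded mRNAs had a median TL of 1.37 in rpl24b and 0.01 in WT. In 4 of them the WT signal was dim, so that their WT loading is poorly known. CAC2, the biotin carboxylase subunit of plastid acetyl-CoA carboxylase, had TL values of 1.40, 1.27 and 1.48 in rpl24b against -0.37, -0.47 and -0.04 in WT (difference 1.68, adjusted p = 0.000802). Its PL signals were 8.80, 8.88 and 8.99 in rpl24b and 9.14, 9.25 and 9.15 in WT, and its NP signals 7.40, 7.61 and 7.50 in rpl24b and 9.52, 9.72 and 9.18 in WT. The genotypes thus differed more in NP than in PL. RPL3A had TL values of 0.83, 1.21 and 1.11 against -0.19, -0.27 and -0.22 (difference 1.28, adjusted p = 0.00373). RPS2C had 1.10, 0.86 and 1.30 against -0.05, -0.48 and 0.14 (difference 1.21, adjusted p = 0.0171), and its call in rpl24b was lost without replicate 3 (0.98) and after quantile normalization (0.86). AT1G52930, of ribosome biogenesis, had 1.56, 1.64 and 1.53 against 0.10, -0.07 and 0.44 (difference 1.42). In each of these 4 the 2 genotypes did not overlap, but the 4 were chosen by a test on these same values.

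Of the cytosolic r-protein probe sets, 7 for 60S and 2 for 40S proteins were higher than in WT, and 2 and 1 were lower. Of the 9 higher ones, RPL3A and RPS2C were called above in rpl24b, and the other 7 were not called and had a negative mean TL in WT. RPL18aC had a TL of 0.54 ± 0.12 in rpl24b and -1.34 in WT, RPL13D 0.49 ± 0.11 and -1.02, and RPL7D 0.11 ± 0.34 and -1.14. The nuclear genes for plastid r-proteins and the plastid genome held no probe set that differed, although the plastid medians were -1.19 in rpl24b and -0.84 in WT. rbcL was at -2.17 in rpl24b and -1.01 in WT, with an adjusted p of 0.0751.

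The 51 poorly loaded mRNAs that were lower than in WT had a median TL of -1.63 in rpl24b and -0.10 in WT. In 31 of them the WT signal was dim, so that their WT loading is poorly known. NP was higher in rpl24b than in WT by 1 or more in 43 of the 51 and TC in 22, whereas PL was lower by 1 or more in 3. The medians of rpl24b minus WT were 1.93 in NP, 0.41 in PL and 0.94 in TC. The 51 were chosen by these same PL and NP values, and dim WT signals left PL little room to be lower. The contrast of NP with PL is therefore partly set by the choice and only describes the group. AT2G15560 had NP signals of 10.65, 9.97 and 10.12 in rpl24b against 4.78, 3.88 and 4.43 in WT, and PL signals of 6.56, 7.58 and 7.01 against 4.24, 4.21 and 4.70. Its TC signal averaged 8.17 in rpl24b and 4.26 in WT, and NP exceeded PL in rpl24b in every replicate. Its WT signals were dim. AT1G50290 had a TL of -3.30 ± 0.30 in rpl24b and -1.44 ± 0.15 in WT, with TC means of 8.16 and 5.90.

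Among the 20 mRNAs of this kind that were bright in both genotypes stood ACX5, an acyl-CoA oxidase. Its TL values were -2.12, -1.97 and -2.24 in rpl24b against -0.22, 0.21 and -0.24 in WT (difference -2.03, adjusted p = 0.000397). Its NP signals were 8.46, 8.31 and 8.17 against 5.99, 5.61 and 6.00, and its PL signals 6.34, 6.34 and 5.92 against 5.77, 5.82 and 5.76. The TC means were 7.53 and 6.43. AGP22, with -2.05 in rpl24b and -0.05 in WT, was dim in WT. The mRNAs AT1G65370 and AT2G40960 were called below in rpl24b yet higher than in WT, with TL of -1.16 and -1.11 in rpl24b and -3.20 and -2.52 in WT, and the call of AT1G65370 was lost without replicate 2 (-0.98). DR4 was called above in both, at 1.51 in rpl24b and 2.85 in WT. The count of 67 depended on single samples. It was 31 when rpl24b replicate 3 was left out, 37 for rpl24b replicate 1, and 44 for rpl24b replicate 2 as well as for WT replicate 1. Leaving out WT replicate 2, whose NP array had the lower median, gave 68.

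**Figure D5:**
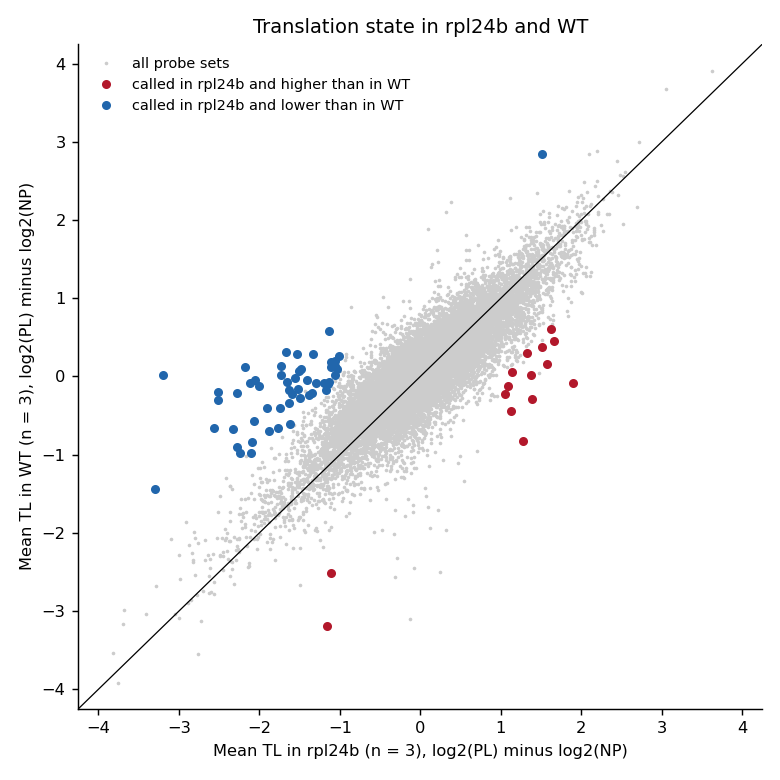
Mean TL, log2(PL) minus log2(NP), in rpl24b (horizontal axis) and in WT (vertical axis) for all probe sets (grey, n = 3 samples each), with the line of equal values. Red (higher than in WT) and blue (lower) mark the 67 probe sets called in rpl24b that differ from WT; of the 51 that are called below and lower than in WT, 50 lie between -1 and 1 in WT.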

How the data were processed

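RNA of aerial parts of seedlings was measured on Affymetrix ATH1 arrays. The authors extracted and normalized the deposited signals with RMA in the affy package of R/Bioconductor and gave them on the log2 scale, per the file headers; versions and a genome build are not given in the sources used here. TC arrays have another median and seem to have been normalized separately, so TC was compared within TC. The deposited translation states differed from PL minus NP by at most 0.001, and the series matrix held the same signals.

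TL was computed per plant sample from the deposited log2 values. In R 4.3.3, the package limma 3.58.1 (functions lmFit and eBayes) tested whether the 3 rpl24b values differed from 0, and compared 3 values of rpl24b with 3 of WT without a block. The call was an adjusted p under 0.05 (Benjamini-Hochberg over 22746 probe sets) and a TL of at least 1. Tables and figures were made with Python 3.11.15, pandas 2.3.3, NumPy 2.4.6 and matplotlib 3.10.9. The procedure was tested on simulated data. PL and NP of a number come from the same plants, which pairs them, and their deviations from group means correlated at 0.24, 0.23 and 0.32, against -0.24 to 0.03 for other pairs. p-values measure the spread between 3 plantings.

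Probe sets were named from the platform annotation (13513 with 1 symbol, 503 with several), r-protein catalogues (89) and the study's lists (456), and 8185 stayed unnamed here. A RefSeq gene table matched 14478 of them. Genes named were the 15 highest and 15 lowest among called, bright, single-locus probe sets with 1 sign in all replicates, the 3 highest and lowest of each list (all of lists up to 12), the RPL24 genes and CPC, the 10 largest differences from WT in each direction among called ones, and paralogs of the 5 r-proteins of widest range. All other genes in the text, such as further plastid, r-protein and ribosome biogenesis genes, RPL18aC, RPL13D, RPL7D and DR4, were named after their values were seen. Members, lists and tests were chosen with earlier results of these data known. Sequences, protein lengths and the relation of TL to length were not analysed here. Alternatives are given in the closing section.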

Additional observations from a re-analysis of the deposited data

Results flagged for a closer look

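By limma on the 3 values of each genotype, TL differed between rpl24b and WT by at least 2-fold in 138 probe sets. The 32 of them that belong to the genes chosen for mention in the text are listed here. Among those higher in rpl24b, RPP0A, a paralog for the stalk protein P0, was furthest apart at 2.96, with a TL of -0.13 in rpl24b, where its probe set was dim, and -3.10 in WT. The probe set of AT4G38330 and AT4G38280 differed by 2.098, AT1G65370 by 2.04, AT5G53240 by 1.98, RPL18aC by 1.88, CAC2 by 1.68, AT1G26530 by 1.56, a nad1 probe set by 1.55, the probe set of FKF1, AT5G23410 and AT5G42730 by 1.42, AT1G52930 by 1.42, RPL13D by 1.51, AT2G40960 by 1.41, RPL3A by 1.28, RPL7D by 1.25, RPS2C by 1.21, AT4G39880 by 1.21, mRPS18 by 1.14 and NUC-L2 by 1.03. The nad1 and FKF1 probe sets were dim in rpl24b, and those of AT5G53240 and AT1G26530 in WT.

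Among those lower in rpl24b, AT2G15560 differed by -3.22, AT5G15420 by -2.31, AT1G58025 by -2.29, the probe set of AT5G27010 and AT5G06350 by -2.21, AT4G29200 by -2.07, ACX5 by -2.03, AGP22 by -2.004, AT5G28230 by -1.99, AT5G15360 by -1.90, AT2G39110 by -1.88 and AT1G50290 by -1.86. DR4 differed by -1.335 and was called above in both genotypes. RPL24B differed by -1.48, which compares background in the mutant with an expressed gene in WT. HTB11, a histone H2B gene, differed by -1.27 and was dim in rpl24b, with a TL of 0.13 against 1.40 in WT. Of the lower ones, those of AT2G15560, AT5G15420, AT1G58025, AT4G29200, AGP22, AT5G28230, AT5G15360 and AT2G39110 rest on probe sets that were dim in WT.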

How the results depend on the processing

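Counts of mRNAs above and below, 1255 and 1050, were 1252 and 1049 without the replicate block, 1521 and 862 after centring each array on its median, 1115 and 1112 after quantile normalization of the 6 arrays, 1232 and 986 without dim probe sets, 1254 and 1050 from the deposited TL values (an alternative added after seeing the data) and 1255 and 1050 with a trended, robust fit or a spread shared with WT. Leaving out 1 replicate gave 1242 to 1356 above and 974 to 1126 below. With no 2-fold minimum the counts were 4478 and 4495. Centring moved the median TL of all probe sets from -0.04 to 0.04. The count of called mRNAs that differ from WT, 67, was 75 with a replicate block, 83 after centring (with 117 probe sets higher and 69 lower in all, against 57 and 81), 78 with the trended, robust fit, 40 without dim probe sets (fewer were tested) and 31 to 68 with 1 sample left out. Among single named mRNAs, leaving out the pairing of PL with NP changed the call of LEA7 alone.

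The median of the mitochondrial genome, -0.69, was -0.60 over probe sets of 1 locus and -2.52 over bright ones. That of 60S r-proteins, 0.39, was 0.47 after centring, 0.54 over bright probe sets and 0.35 to 0.46 with 1 replicate left out. Of 108 single called results, 17 missed the threshold under at least 1 alternative, 11 of them after quantile normalization, and none reversed. Of 112 not called, 7 passed it after centring, 3 after quantile normalization, and 4, 1 and 4 without replicates 1, 2 and 3. The cause of these shifts was not tested. TL by protein length was planned and not run, as no lengths were at hand. Low signals limit the TL of dim probe sets, where a call could seldom be made.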

Other observations

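Some gene groups not covered by the lists were described after their values were seen, so their counts are descriptions without a test of the group. Over all probe sets, 5.52% were called above and 4.62% below, and over bright ones 10.2% and 8.18%. Of 7 dehydrin and cold-response probe sets, 5 were called above in rpl24b and 0 below, with a median TL of 1.63. Beside RAB18 and LTI30, COR47 had TL values of 2.24, 2.29 and 1.64, COR15A of 2.23, 1.46 and 1.21 and COR15B of 1.74, 1.74 and 0.97, each a protein that protects cells during cold or drying. Replicate 3 was lowest in these 3 genes. The group's median in WT was 2.07 with 6 called above.

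Of 8 thioredoxin and peroxiredoxin probe sets, which encode redox proteins of plastids, mitochondria and cytosol, 7 were above (median 1.51). Besides AT3G11630, PRXIIF had a TL of 1.95 ± 0.14, TRXF2 of 1.75 ± 0.20 and TO1 of 1.58 ± 0.37, while ATHM2 had 0.33 ± 0.06. In tetrapyrrole synthesis 4 of 10 were above and 1 below, with a median of 0.20. Those above were CHLI2, HEMB1 (1.75 ± 0.03), HEME2 (1.62 ± 0.09) and GSA1 (1.37 ± 0.08). The 1 below was hemf2 at -1.17 on a dim probe set. Among 16 glutathione transferases 4 were above, with a median of 0.32 over the group. The probe set of GSTF3 and GSTF2 led at 2.69 ± 0.11, followed by that of GSTF6 and GSTF7 at 1.96 ± 0.31.

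Signalling peptide genes were described as well. Of 6 CLE probe sets 3 were bright, and these 3 were the ones called below, CLE27 at -1.53 ± 0.36, CLE44 at -1.33 ± 0.07 and CLE41 at -1.07 ± 0.09 (median of the 6, -0.60). Of 12 RALF probe sets, whose median of -0.04 equalled that of all probe sets, 2 were below, RALFL32 at -1.66 ± 0.11 and RALF23 at -1.60 ± 0.23. None of the 12 WRKY transcription factor probe sets and 10 autophagy probe sets that could be named was called, the medians being -0.20 and 0.78.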
